A study of Mus musculus with 20 samples.

Results

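The comparison described here is methionine restriction in wild-type C2C12 cells at day 1. C2C12 is a mouse myoblast line that can be driven to leave the cell cycle, fuse and form contractile myotubes. Chromatin accessibility was measured by ATAC-seq, in which a transposase inserts sequencing adapters into open DNA. The 4 libraries were wild type (WT) at D1, with replicates 1 and 2 in control medium (CTL) and replicates 1 and 2 under methionine restriction (MR), out of 20 libraries in the whole series. The other 16 come from WT cells at D0 and D5 and from lines of a Setd2 knockout (KO 1 and KO 2) at D0, D1 and D5, and were used only as libraries that had no part in choosing the regions. The labels give no methionine concentration and no differentiation protocol, and each KO line has 1 library per day and medium. They do not say whether replicates came from separate cultures, so p-values measure only the spread between these libraries, which may be technical.

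Methionine is the precursor of S-adenosylmethionine, the methyl donor for DNA and histone methyltransferases, Setd2 among them. A shortage of amino acids is sensed through the kinase Gcn2 (gene Eif2ak4) and the transcription factor Atf4, which raises genes for amino acid synthesis, import and tRNA charging. Differentiating myoblasts follow the myogenic factors Myod1 and Myog, which bind E-boxes in the promoters and enhancers of muscle genes.

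The CTL lists held 60173 and 45545 peaks and the MR lists 69881 and 57676, so the groups overlapped in number of peaks (difference of mean log2 number 0.28, two-sided exact permutation p = 0.667). MR lists covered more sequence, 16211 and 13109 kb against 11921 and 9084 kb in CTL, and their median peak widths of 156 and 155 bp exceeded the 138 and 142 bp of CTL. Neither measure overlapped between the groups, with an exact permutation p of 0.333 for each, the smallest that 2 libraries against 2 allow. The files give no read totals, so the depth of each library is unknown. The share of covered sequence common to a pair of libraries (Jaccard index) was 0.657 within CTL, 0.715 within MR and 0.509 to 0.613 across media. As a check of the cell type, 5 of 7 myoblast and early myocyte markers carried a gene-end peak, within 1 kb of either end of the gene, in each of the 4 libraries, and Myf5 and Pax7 had none in any. Of 5 markers each, adipocyte genes had 2 to 3 such peaks per library, osteoblast genes 0 to 1 and immune genes 0 to 1.

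The peaks of the 4 lists were merged at 1 bp of overlap into 79029 regions, of which 38390 (48.6%) were called in all 4 lists. A gained region was called in both MR lists and neither CTL list, and a lost region in both CTL lists and neither MR list. There were 8079 gained regions (10.2%) and 1400 lost regions (1.77%), so that with the lists as deposited 5.77 regions were gained for each region lost. The excess went with the length of the lists: with only the 45545 strongest peaks of every list, as many as the shortest held, 3957 regions were gained and 3073 lost. Of the regions gained and lost as deposited, 2550 (31.6%) and 841 (60.1%) were still gained and lost at equal length. Single libraries also moved the counts. Gained regions numbered 14977 without CTL replicate 1 and 18092 without MR replicate 2, and lost regions 6733 without CTL replicate 2 and 3263 without MR replicate 1.

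**Figure D1:**
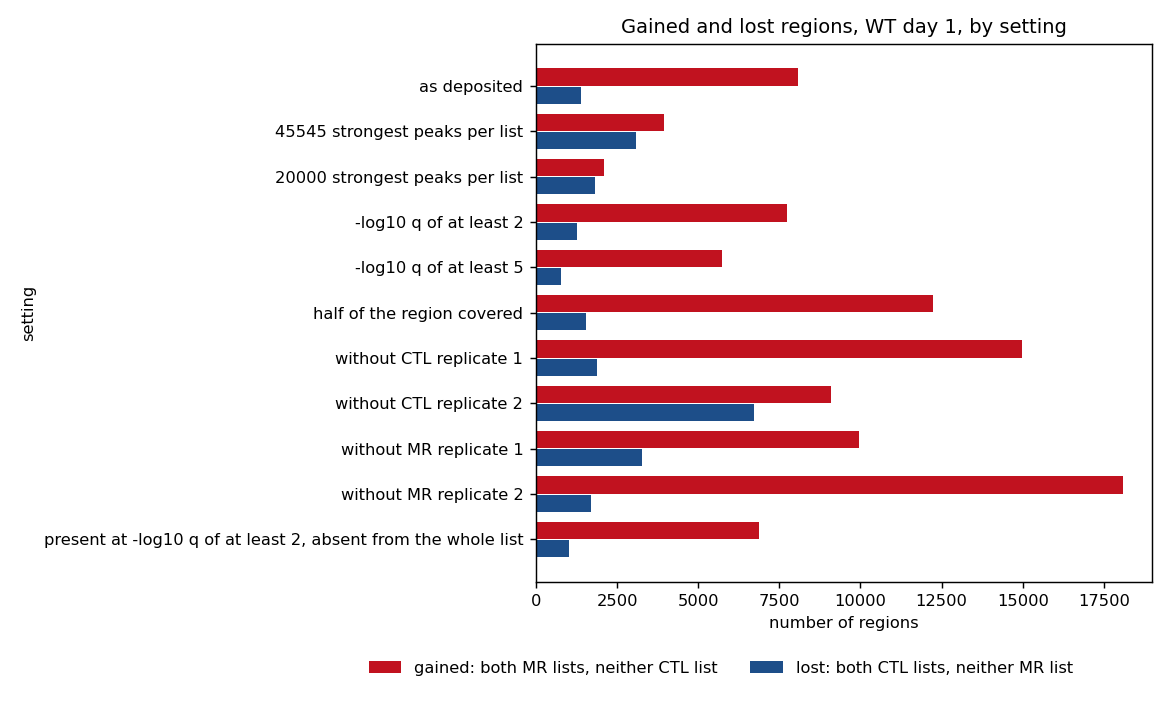
Number of regions gained (red) and lost (blue) at D1 in WT under each setting, as bars from 0. Gained regions outnumbered lost regions under every setting shown, from 8079 against 1400 as deposited to 2087 against 1822 with the 20000 strongest peaks per list.

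Gained and lost regions were mostly narrow, weak and away from gene ends. Their median width was 120 bp for gained and 96.0 bp for lost regions. It was 267 bp for regions called in all 4 lists and 157 bp for all merged regions. By definition a region called in all 4 lists joins peaks of every list, so its width is not directly comparable. Within 1 kb of an end of a protein-coding gene lay 11.1% of gained regions (95% Wilson interval 10.4 to 11.8%) and 8.93% of lost regions (7.55 to 10.5%), against 26.6% of those called in all 4. Among all merged regions this share was 18.8%. Gene bodies held 45.7% of gained and 54.3% of lost regions, and the space between genes 43.2% and 36.8%. All merged regions lay in gene bodies in 45.4% and between genes in 35.8%, so the gene-body share of gained regions was near that of all. Strength was read as the percentile of a peak within its own list by the authors' −log10 p-value, and the lower of the values in both libraries had a median of 17 for gained and 13.7 for lost regions. Every chromosome took part, with 8.97% (chromosome 12) to 12.2% (chromosome 13) of its merged regions gained and 1.14% (chromosome X) to 2.15% (chromosome 11) lost.

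The gene-end share of whole lists fell in the same direction. It was 22.4% and 25.1% in CTL and 19.8% and 22.3% in MR, a difference of −2.70 percentage points with no overlap between the groups (exact permutation p = 0.333). The nearest libraries of the groups were close, and with a narrower gene-end window or a −log10 q of at least 5 the groups overlapped (exact permutation p = 0.667 in each). At equal list length the difference was −0.87 points.

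Lost regions lay in the promoters of 4 contractile and muscle structure genes, whose sequences are shown because these regions carry the muscle part of the comparison. Each line gives the 250 bases before the transcription start from RefSeq (GRCm38.p6), 5′ to 3′ on the gene's strand, with the E-box CAGCTG or, in Actc1, the CArG box in capitals.

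Ckm: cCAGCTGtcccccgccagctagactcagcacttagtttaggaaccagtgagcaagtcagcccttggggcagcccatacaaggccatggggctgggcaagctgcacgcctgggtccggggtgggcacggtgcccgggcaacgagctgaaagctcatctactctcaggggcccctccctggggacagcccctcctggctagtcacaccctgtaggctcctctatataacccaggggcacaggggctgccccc
Mylpf: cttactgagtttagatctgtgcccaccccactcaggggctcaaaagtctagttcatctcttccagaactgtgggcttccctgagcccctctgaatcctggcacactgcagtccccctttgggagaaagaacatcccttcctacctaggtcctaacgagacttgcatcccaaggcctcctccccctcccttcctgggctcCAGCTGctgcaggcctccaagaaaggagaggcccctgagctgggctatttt
Mybph: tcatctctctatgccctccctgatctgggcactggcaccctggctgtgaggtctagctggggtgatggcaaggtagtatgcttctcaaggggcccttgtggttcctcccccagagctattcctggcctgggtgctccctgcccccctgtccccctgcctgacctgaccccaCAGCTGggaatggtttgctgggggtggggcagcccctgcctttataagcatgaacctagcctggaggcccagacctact
Actc1: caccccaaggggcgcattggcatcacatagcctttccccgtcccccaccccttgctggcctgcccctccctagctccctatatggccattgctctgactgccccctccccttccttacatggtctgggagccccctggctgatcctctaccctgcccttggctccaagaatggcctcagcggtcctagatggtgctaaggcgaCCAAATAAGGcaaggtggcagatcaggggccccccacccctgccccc

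Ckm encodes muscle creatine kinase, Mylpf the fast regulatory myosin light chain, Mybph a myosin-binding protein and Actc1 the cardiac alpha-actin that myotubes also express. The Ckm window lies at chr7:19410844-19411093 on the + strand, Mylpf at chr7:127211358-127211607 (+), Mybph at chr1:134193198-134193447 (+) and Actc1 at chr2:114052876-114053125 on the − strand. The Mylpf window belongs to a start inside the gene's annotated span, and its region lay 1039 bp from the nearer gene end. The lost region covered the capital letters in Ckm, Mylpf and Actc1 and ended before them in Mybph. Among 26 promoters that overlapped a lost region (window from 250 bases before to 50 after the start), CAGCTG, which is its own reverse complement, stood before the start in 8 (30.8%), against 12.2% of all 21045 promoters. The 8 include Ckm, Mylpf and Mybph shown above. CANNTG, which includes CAGCTG, stood in 69.2% and 62.8%. The CArG box, searched on both strands, stood in 1 of the 26 (3.85%), the Actc1 promoter shown above, against 1.40% of all. These shares are therefore not independent of the examples. For the 296 promoters with a gained region the share with CAGCTG was 11.5%. These are matches of letters, not measured binding.

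These regions had within-list percentiles of 1.59 (Mylpf) to 55.4 (Actc1) in the CTL lists, and 3 of the 4 regions were called in every WT list of D5. The Ckm region (chromosome 7, 19410758 to 19410951) had an authors' −log10 q-value of 7.62 and 4.55 in the CTL libraries. In Actc1 (chromosome 2, 114052712 to 114052988) it was 5.90 and 7.49, in Mybph (chromosome 1, 134193197 to 134193278) 6.04 and 3.64, and in Mylpf (chromosome 7, 127211505 to 127211670) 3.82 and 1.51. None of the 4 had a peak in either WT D0 list, in the 4 KO lists of D0 and D1 CTL or in the 2 KO lists of D1 MR. The regions called throughout D5 in WT were those of Actc1, Mybph and Mylpf, and that of Ckm was called in 1 list of each medium. At D1, then, these regions were called in CTL and not in MR, and at D5 in both media. The regions of Actc1, Ckm and Mybph were still lost at equal list length, and that of Mylpf was not. MR replicate 2 had another peak within 1 kb of an end of Ckm, so the locus itself was not without a peak.

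Over all 38 contractile and muscle structure genes, 7 (18.4%) held a lost region inside the gene or within 1 kb of an end, against 3.74% of all 21631 protein-coding genes. A gained region was held by 9 (23.7%), against 15.7% of all genes. Within 1 kb of an end the counts were 5 lost (13.2%, against 0.629% of all genes) and 1 gained (2.63%, against 4.35%). Besides the 4 above, lost regions lay at Acta1, skeletal alpha-actin (−log10 q 1.5 and 2.45), Chrng, the embryonic subunit of the acetylcholine receptor (3.76 and 3.0), and Neb, the thin-filament ruler nebulin (2.37 and 1.63). None of these 3 remained at equal list length. The gained regions lay inside genes for Myl1, Tnnt3, Tnni1, Tpm1, Tpm2, Ttn, Chrna1 and Musk and 403 bp from an end of Myh1. So 5 of the 7 genes with a lost region had it at an end, and 8 of the 9 with a gained region had it inside. In a bulk library, fewer cells with a site open and less opening per cell cannot be told apart. The Myh1 region was the strongest of these in MR replicate 1 after that of Musk (8.23 and 2.55, against 8.93 and 6.99).

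**Figure D2:**
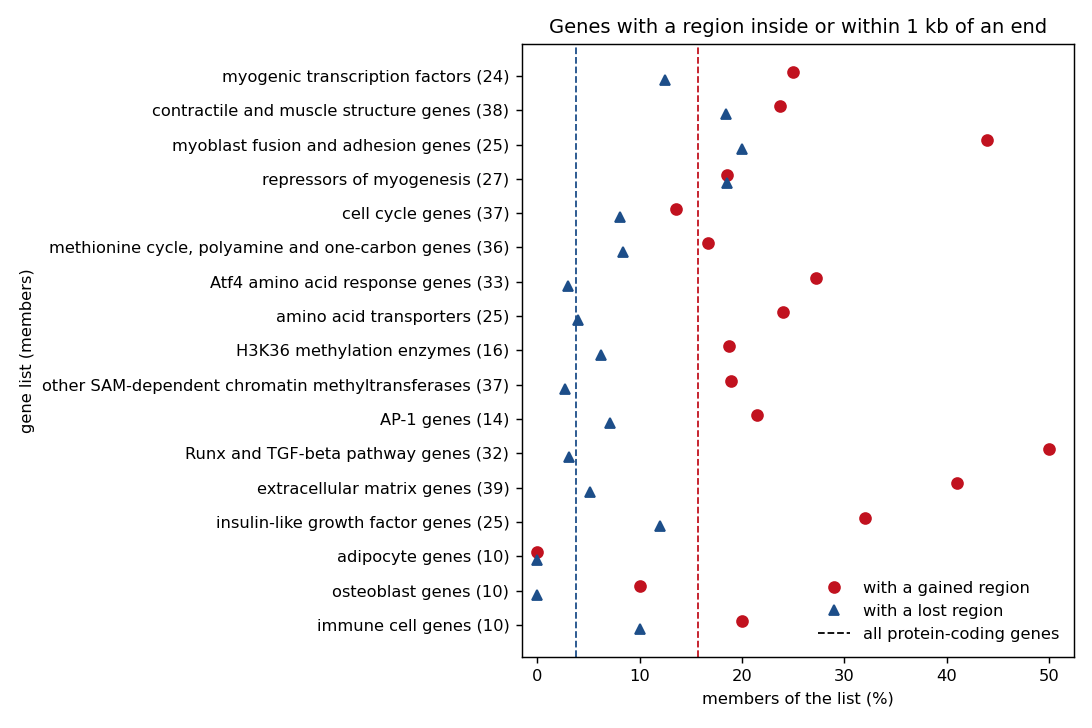
Percent of the members of each gene list with a gained (red circles) or lost (blue triangles) region inside the gene or within 1 kb of an end, with dashed lines for all protein-coding genes. Contractile genes stood at 18.4% for lost regions against 3.74% of all genes, and Runx and TGF-beta genes at 50% for gained regions against 15.7%.

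For regions called in all 4 lists, strength was compared by rank: regions were ranked anew in each library among these 38390 (0 weakest, 100 strongest), and normal scores of the ranks were tested with limma. With Benjamini-Hochberg adjustment 515 regions (1.34%) ranked higher in MR and 650 (1.69%) lower at an adjusted p under 0.05, and 10525 (27.4%) had an unadjusted p under 0.05. All adjusted p of these calls lay between 0.0453 and 0.04999, just inside the threshold. No region passed in limma when any 1 of the 4 libraries was left out, with 5968 to 11747 at an unadjusted p under 0.05. All 1165 regions kept their direction in each of these fits. The fits reuse the scores by which the regions were called, so this is no independent check. The ranks of the groups did not overlap, whatever the p, in 11817 regions (30.8%) that were higher and 11194 (29.2%) that were lower in MR.

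Like gained and lost regions, the regions past the threshold lay away from gene ends. Within 1 kb of an end were 10.3% of the higher and 10.0% of the lower ones, against 26.6% of all ranked regions. Gene bodies held 45.6% and 52.0% of the regions past the threshold, against 42.3% of all. Among all regions with ranks that did not overlap, 29.1% of the higher and 21.2% of the lower ones lay within 1 kb of an end. The low gene-end share thus did not extend to all regions that ranked higher without overlap. Regions that fell in MR were called in both WT D0 lists in 63.4% of cases, regions that rose in 76.5%, and all ranked regions in 84.7%. Both sets past the threshold were thus called at D0 in smaller shares than ranked regions in general, with no test of the difference. They were also weaker, with a median mean rank of 32.5 (higher) and 34.9 (lower) against 48.2 for all. Among all regions with ranks that did not overlap, 90.4% of the higher and 79.9% of the lower ones were called in both WT D0 lists.

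The 10 largest rises lay between genes in 8 cases and in gene bodies in 2. The first lay 54258 bp from Abcc12, a gene of the ABC transporter family (chromosome 8, 86450005 to 86450310). Its ranks were 3.66 and 10.1 in CTL and 94.9 and 89.3 in MR, a rise of 85.2 points of mean rank (2.97 ± 0.271 SE in normal scores, limma adjusted p = 0.0453). The next lay in the gene-poor stretch 578548 bp from Myc, the growth-promoting transcription factor (chromosome 15, 62568909 to 62569929), with ranks of 4.18 and 11.5 in CTL and 90.7 and 92.7 in MR. Both thus moved from among the weakest to among the strongest regions of their libraries. Others lay near Smad6, an inhibitor of BMP signalling (28058 bp away, rise of 78.1 points), Ereg, an EGF receptor ligand (16445 bp, 76.9 points), Slc5a3, a myo-inositol transporter (35980 bp, 71.8 points), and Optn, an autophagy receptor (30573 bp, 80.5 points). Rises of 81.5 and 81.1 points lay inside Washc5, a subunit of the WASH complex, and Arhgap33, and of 79.7 and 79.5 points near Tmem68 and Rgs1. All 10 were called in both WT D5 MR lists and both KO D1 MR lists, and 9 of them, all but that near Abcc12, in neither WT D5 CTL list. In the KO control lists of D0 and D1 these regions were also present, 6 of the 10 in all 4 lists and each in at least 1. Of the 10, 8 were also called in both WT D0 lists, those in Washc5 and Arhgap33 being called in neither.

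Of the 10 largest falls, 6 lay in gene bodies, 1 at a gene end and 3 between genes. The deepest lay inside Lekr1 (chromosome 3, 65670238 to 65670544), where the ranks were 86.5 and 83.3 in CTL and 2.84 and 13.6 in MR, a fall of mean rank of −76.7 points (−2.54 ± 0.306 SE in normal scores, limma adjusted p = 0.0453). Inside Rptor, which encodes the Raptor subunit of the nutrient-sensing kinase mTORC1, a region on chromosome 11 from 119824188 to 119824569 went from 95.4 and 88.2 in CTL to 20.2 and 21.4 in MR. Rptor also held 5 lost regions and 1 gained one along its 296.7 kb, and Rptor and Sorcs2, with 5 each, held more lost regions than any other gene. Near the desaturase gene Scd2 the ranks were 87.6 and 79.4 in CTL and 15.4 and 8.62 in MR, and 551 bp from Adamts4, an extracellular protease, 78.8 and 86.7 against 4.70 and 17.9. In each of these 4 regions both MR libraries ranked far below both CTL libraries. The remaining falls lay in Mtmr12, Chsy1, Col5a1 and Galnt16 and near Gk2 and Ywhaq, with changes of −72.1 to −68.0 points. At D5 the regions of Mtmr12, Scd2, Adamts4, Gk2 and Ywhaq were called in no WT list. Those of Lekr1, Col5a1 and Galnt16 were called in every WT D5 list, and those of Rptor and Chsy1 in 1 CTL list and both MR lists. None of the 10 falls was thus called in more D5 CTL than D5 MR lists.

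Whether these differences appeared in cells that had no part in choosing them was read at D5 and in the KO lines. In WT at D5, 3.14% and 2.04% of gained regions were called in CTL and 22.7% and 20.7% in MR, a mean of 2.59% against 21.7% and a ratio of 8.38. Lost regions were called in 7.65% and 13% (means, ratio 1.70), and all merged regions in 26.1% and 47.2% (ratio 1.81). Each of the 3 contrasts had an exact permutation p of 0.333, the smallest possible. The WT D5 lists held 22465 and 20847 peaks in CTL and 39538 and 39263 in MR. With the 20000 strongest peaks of every list and both sets defined anew, the direction of lost regions turned: gained regions were called in 33.1% in CTL and 52.0% in MR, lost regions in 39.8% and 27.6%, and all merged regions in 59.6% and 64.1%.

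**Figure D3:**
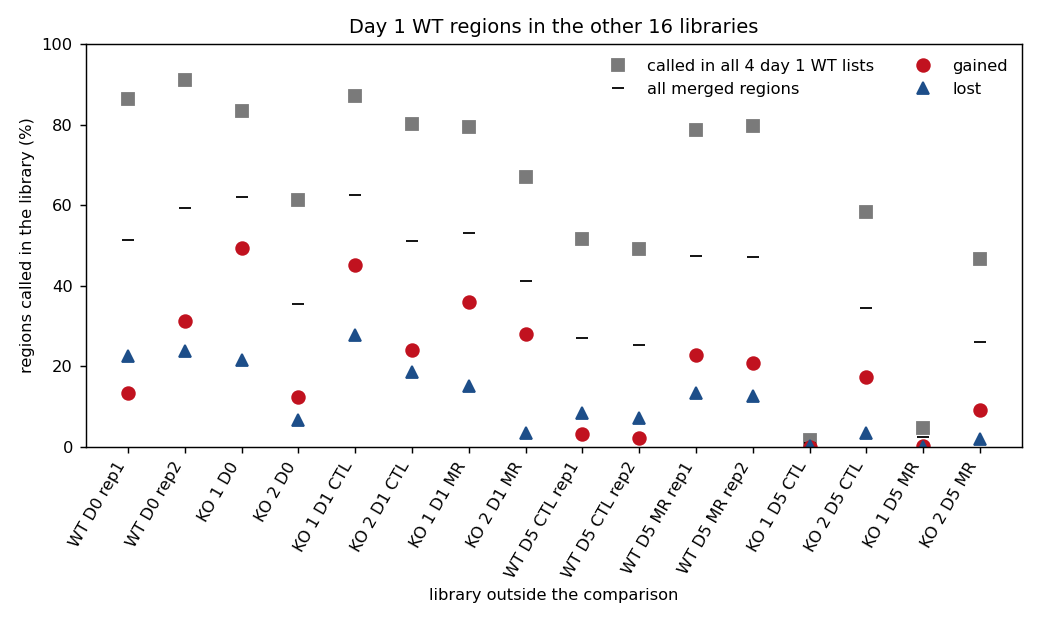
Percent of gained (red circles), lost (blue triangles), all merged (black dashes) and always called (grey squares) D1 regions that had a peak in each of the 16 libraries outside the comparison, with the lists as deposited. Gained regions stand at 3.14% and 2.04% in the WT D5 CTL libraries and at 22.7% and 20.7% in WT D5 MR.

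At single regions, 986 gained regions (12.2%) were called in both D5 MR lists and neither D5 CTL list and 7 in the reverse pattern. The former pattern was found in 20.8% of the regions called in all 4 D1 lists. It rose with strength at D1, in 4 equal bins, from 7.03% of gained regions in the weakest bin to 20.7% in the strongest. In the strongest bin, 418 of 2020 showed it and 0 the reverse. Regions that ranked higher in MR at D1 showed it in 246 of 515 cases (47.8%) with 0 in reverse, and regions that ranked lower in 86 of 650 (13.2%) with 12 in reverse. Lost regions showed it in 63 cases (4.5%) with 16 in reverse, and regions called in all 4 D1 lists in 7985 with 114 in reverse. Every set, lost regions included, was thus found in both D5 MR lists alone more than in both D5 CTL lists alone. No test was made of these shares.

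The same direction was seen in rank at D5. Among 16664 D1 regions also called in all 4 WT D5 lists, the D5 ranks of the media did not overlap with MR higher in 30.8% and MR lower in 31.7%. Of the 89 such regions that rose at D1, D5 ranks were higher in MR without overlap in 42 (47.2%) and lower in 15 (16.9%), with a median D5 shift of 9.01 points. Of the 163 that fell at D1, 12 were higher (7.36%) and 110 lower (67.5%), with a median of −18.4 points. Lekr1 and Col5a1 were among the latter, and at Galnt16 the D5 groups overlapped. The D5 libraries do not share controls with D1.

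D0 showed both sets as minorities. In the WT D0 lists 13.3% and 31.1% of gained and 22.6% and 23.9% of lost regions were called. The shares were 51.3% and 59.3% of all merged regions, and 86.3% and 90.9% of those called in all 4 D1 lists. Replicates at D0 thus differed more for gained than for lost regions. Of gained regions, 5353 (66.3%) were in neither WT D0 list and 2060 (25.5%) in no other list of the series, and of lost regions 970 (69.3%) and 534 (38.1%). Of the regions called in all 4 D1 lists, 7.41% were in neither WT D0 list and 1.4% in no other list.

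In the Setd2 knockout lines at D1, the gained share went from 45.1% in CTL to 36% in MR in KO 1 and from 24.0% to 28.0% in KO 2. The lost share went from 27.8% to 15.1% in KO 1 and from 18.6% to 3.43% in KO 2. Over all merged regions the share also fell, from 62.6% to 53.0% in KO 1 and from 51.2% to 41.0% in KO 2. The lists of these lines shortened under restriction, from 61045 to 48460 and from 46664 to 35201 peaks. By rank among 23394 regions called in all 4 WT and all 4 KO lists of D1, 278 of the 515 regions that rose in WT could be followed. In KO 2 their median shift was 24.0 points and 260 (93.5%) were higher in MR. In KO 1 it was 6.06 points, and 209 (75.2%) were higher, against 50.95% and 51.4% of all 23394 in KO 2 and KO 1. Of the 127 that fell in WT and could be followed, 119 (93.7%) were lower in KO 2, with a median of −26.4 points, and 79 (62.2%) in KO 1, with −2.09. With 1 library per medium in each line, the difference between lines has no replicate check.

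Of the 15 strongest gained regions 9 lay in gene bodies, 6 between genes and 0 at gene ends, the nearest being 1041 bp from an end of Lonp1, with widths of 85 to 581 bp. They were called in both MR libraries with −log10 q-values from 21.3 to 46.0 and had no peak in CTL. The strongest lay 48877 bp from Ctla4, an inhibitory receptor of T cells (chromosome 1, 60859928 to 60860148), with −log10 q of 43.3 and 35.7. Those next in rank lay inside Unc5b, a netrin receptor (chromosome 10, 60770929 to 60771224), with 40.4 and 34.2, and inside Lonp1, a mitochondrial protease (chromosome 17, 56625539 to 56625862), with 46.0 and 33.2. A region 222408 bp from Pappa, a protease that cleaves IGF-binding proteins, had 30.3 and 34.2. These 4, with those inside Dip2b and Fmnl2, a formin, were called in both WT D5 MR lists, neither D5 CTL list and both KO D1 MR lists. All 6 were also called in KO control lists of D0 and D1, that in Fmnl2 in 4 of 4, that in Dip2b in 2 and the others in 1, and those in Lonp1 and Fmnl2 in 1 WT D0 list. Regions in Ttc28 and Amotl1, which encodes a Yap-binding angiomotin, and near Mtx2, a mitochondrial outer membrane protein, were also in both D5 MR lists, and that in Tbc1d22a in 1. The region in Ano10 was in both WT D0 lists and no D5 list.

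By contrast, 4 of the 15, inside Scp2 and near Peli3, Usp14 and Fgf9, were in no other list of the series. Their widths were 85 to 165 bp, and the Scp2 region (chromosome 4, 108079119 to 108079218) had −log10 q of 35.7 and 28.0. All 15 were still gained at equal list length and with 20000 peaks per list.

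The 15 strongest lost regions were narrower than the 15 strongest gained ones, with a median width of 92.0 bp against 210 bp. The lower of their within-list percentiles was at most 79.0 (Tiam2), against at least 81.6 (Amotl1) for the gained ones. The lost ones were drawn from 1400 regions and the gained ones from 8079, and the part of set size was not tested. In CTL the −log10 q of these lost regions ran from 8.01 to 29.9. The strongest, inside Tiam2, an activator of the GTPase Rac (chromosome 17, 3353283 to 3353344), had 22.7 and 14.6. It was called in both WT D5 CTL lists and no D5 MR list. The same held for regions in Abtb2 (13.5 and 10.4) and Fads1, a fatty acid desaturase (16.5 and 9.39), and both of these were also in both D0 lists. The region in Fbxw11, an F-box subunit of a ubiquitin ligase, had 29.9 and 14.6 and was called in 11 of the 16 other libraries.

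Inside Tead1, which encodes a DNA-binding partner of Yap, a region on chromosome 7 from 112798089 to 112798199 had 24.4 and 14.4 and was in both D0 lists and no D5 list. Regions in Ppp1r1b and near Cd9, a tetraspanin, and Cdk14 were likewise in both D0 lists and no D5 list. The regions in Ptprg and Gnao1 were in 1 D0 list. Those in R3hdm2 and near Pard3, Pik3r3 and Adgrl3 and the 1 gene-end region, 910 bp from Proser2, were in no other list. All 15 were still lost at equal length and 12 with 20000 peaks per list, the exceptions being those of Pard3, Gnao1 and Adgrl3. Just inside the edge of the definition, the weakest of the 4 bins spanned percentiles of 0 to 7.59 for gained and 0.01 to 5.78 for lost regions.

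At the regulators of myogenesis the strongest gene-end region called in all 4 lists was followed by rank. Myog, which drives terminal differentiation, had ranks of 32.4 and 31.6 in CTL and 10.8 and 19.3 in MR (limma adjusted p = 0.160). Myod1, the determination factor, had 61.9 and 72.7 in CTL and 47.3 and 50.5 in MR (adjusted p = 0.212). Mymk, the fusion protein myomaker, had 99.3 and 97.7 in CTL and 91.8 and 85.6 in MR (adjusted p = 0.0805). In these 3 genes both MR values lay below both CTL values and none passed the threshold. Mymx, its partner myomixer, overlapped between media (82.0 and 90.1 against 75 and 83.2), as did Acta1 (75.5 and 58.7 against 49.2 and 64.5) and Mki67, a marker of cycling cells (58.6 and 22.8 against 48.6 and 70.1).

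Counted over lists, MR ranks were lower without overlap in 5 of 15 ranked myogenic transcription factors, 8 of 21 contractile genes and 7 of 17 fusion genes, and higher in 2, 3 and 2. Over all 9857 genes with such a region, 35.5% were higher and 22.2% lower. Median shifts were 0.39, −3.99 and −5.80 points, against 1.41 for all genes. In the contractile list, 1 call passed: at Casq2, the cardiac and slow-muscle calsequestrin that stores calcium, the ranks were 34.7 and 50.1 in CTL and 7.24 and 6.84 in MR (limma adjusted p = 0.0494). Casq2, and Gnmt, Shmt1 and Fgf21 further on, were picked for mention after their values were seen.

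**Figure D4:**
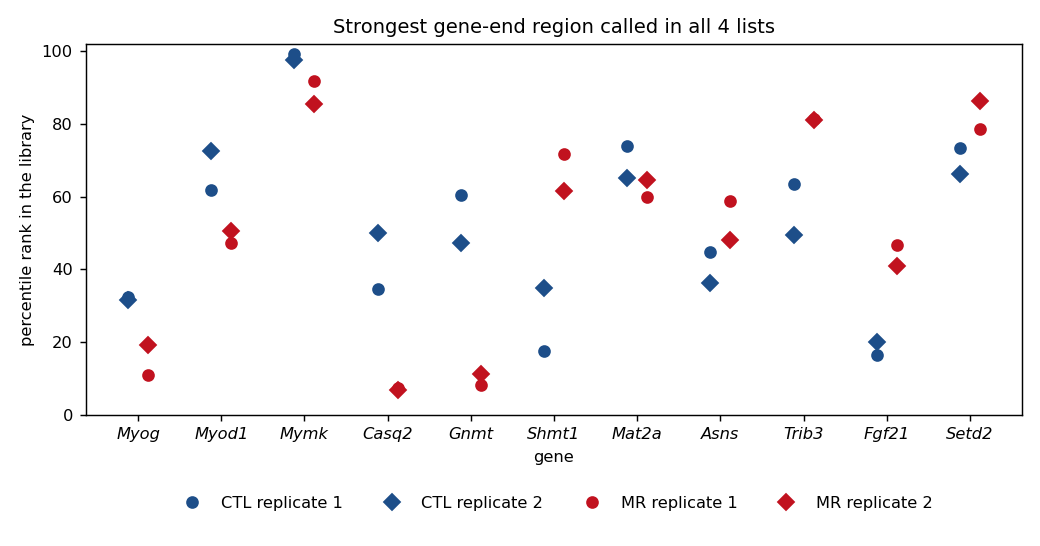
Percentile rank, within each library, of the strongest gene-end region called in all 4 lists for 11 genes, CTL in blue and MR in red, replicate 1 as circles and replicate 2 as diamonds. Casq2 and Gnmt stood at 34.7 to 60.3 in CTL and at 6.84 to 11.1 in MR, and Mymk at 85.6 to 99.3 over all libraries.

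Myoblast fusion and adhesion genes held gained regions in 11 of 25 cases (44.0%, against 15.7% of all genes) and lost regions in 5 (20%, against 3.74%). At equal list length 4 (16%, against 5.72%) held a gained region, and the list's median gene length was 73.8 kb, against 17.3 kb. A gained region lay 56 bp from an end of Dysf, the membrane repair protein dysferlin (−log10 q 3.86 and 4.19, both WT D5 MR lists and neither D5 CTL list). Another lay 246 bp from an end of Adgrb1, a receptor that promotes fusion (14.8 and 16.1). Inside Cdh15, M-cadherin, a region had 10.8 and 10.7 and was in no other list. Lost regions lay in Itga7, an integrin of muscle (4.30 and 2.04), and Nfatc2 (19.1 and 4.79). Among 24 myogenic transcription factors 6 (25%, against 15.7% of all genes) held gained and 3 (12.5%, against 3.74%) lost regions. Eya4, a coactivator of homeobox factors, held 5 gained regions, the strongest with 14.7 and 11.7 in MR and called in both D0 and both D5 MR lists. Mef2c held 2 gained, and Tead1 1 gained and 2 lost regions. Repressors of myogenesis held each kind in 5 of 27 genes (18.5%, against 15.7% and 3.74% of all genes), with Twist2, Hdac4 and Hdac9 holding both.

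Amino acid response genes of the Atf4 pathway nearly all had a gene-end peak in each library (31 to 32 of 33 genes). Of the 33, 9 (27.3%, against 15.7% of all genes) held a gained region and 1, Sesn1, a lost one (3.03%, near the 3.74% of all genes). Within 1 kb of an end 7 (21.2%) held a gained region, against 4.35% of all genes, with Ddit3 and Mars1 sharing 1 region. The list's median gene length was 15.6 kb, against 17.3 kb for all genes. At Trib3, a pseudokinase that restrains Atf4, a gained region 409 bp beyond the gene had 7.67 and 5.66. A region at the end of Ddit3, the stress factor Chop, had 5.24 and 4.99, and it also counts for the neighbour Mars1, methionyl-tRNA synthetase. Gars, glycyl-tRNA synthetase, had 12.6 and 11.7 at 869 bp, in both WT D5 MR lists and neither D5 CTL list. At Ppp1r15a, a regulator of eIF2alpha dephosphorylation, a region nearer to Tulp2 had 15.5 and 6.58. The regions at Trib3, Ddit3, Gars and Ppp1r15a were still gained at equal list length, and that at Ddit4, an mTORC1 inhibitor (2.14 and 1.31), was not.

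By rank the same list moved in both directions, 9 higher (29.0%, against 35.5% of all ranked genes) and 8 lower (25.8%, against 22.2%) of 31. Trib3 had 63.6 and 49.5 in CTL and 81.5 and 81.0 in MR (limma adjusted p = 0.110). Fgf21, a hormone induced by amino acid shortage, had 16.4 and 20 in CTL and 46.7 and 41.1 in MR (adjusted p = 0.0876), in a region nearer to Fut1. Asns, asparagine synthetase, had 44.8 and 36.2 in CTL and 58.8 and 48.0 in MR (adjusted p = 0.374). MR values lay above CTL in each of the 3, without passing the threshold. Atf4 itself had no region.

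Among 25 amino acid transporters 6 (24.0%, against 15.7% of all genes) held a gained and 1 (4.0%, against 3.74%) a lost region, and at equal list length 1 (4.0%, against 5.72%) held a gained one. Slc7a11, the cystine importer xCT, had a gained region of −log10 q 5.33 and 2.83 that overlapped 29 bases of the window before its start (chr3:50443614-50443863, − strand). The window is shown because it holds TGATGNAA, the composite element that Atf4 binds, on each strand, in capitals. The element stands in 3.02% of all promoters and 2.70% of those with a gained region, and here it lies outside the region itself.

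Slc7a11: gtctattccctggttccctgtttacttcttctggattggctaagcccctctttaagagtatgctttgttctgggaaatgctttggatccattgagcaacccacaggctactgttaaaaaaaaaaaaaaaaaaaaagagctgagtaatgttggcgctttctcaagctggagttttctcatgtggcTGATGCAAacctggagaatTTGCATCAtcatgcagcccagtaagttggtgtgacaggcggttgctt

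Of 36 genes of the methionine cycle, polyamines and one-carbon metabolism, 6 held a gained region (16.7%, near the 15.7% of all genes) and 3 a lost one (8.33%, against 3.74%). Gnmt, which consumes S-adenosylmethionine to methylate glycine, was the 1 member whose gene-end region passed, with ranks of 60.3 and 47.3 in CTL and 8.25 and 11.1 in MR (limma adjusted p = 0.0464). That region (chromosome 17, 46725408 to 46725499) lies nearer to Pex6. Shmt2, the mitochondrial serine hydroxymethyltransferase, held a lost region 42 bp from its end (6.04 and 2.94). Shmt1, the cytosolic enzyme, had ranks of 17.5 and 34.9 in CTL and 71.7 and 61.5 in MR (adjusted p = 0.0732). The 2 enzymes thus differed in direction, by different measures. Mat2a, which makes S-adenosylmethionine, had 74.0 and 65.2 against 59.8 and 64.5 (adjusted p = 0.558). Gained regions lay in Mthfd2 (6.02 and 4.79) and Mthfd1l (10.5 and 7.71), both mitochondrial folate enzymes, in Mtap, which salvages methionine (6.75 and 3.81), and in Mat2b, Mtrr and Aldh1l1.

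Of 16 H3K36 methylation enzymes, 7 of 12 ranked genes were higher (58.3%, against 35.5% of all ranked genes) and 2 lower (16.7%, against 22.2%). Setd2 had ranks of 73.4 and 66.2 in CTL and 78.7 and 86.4 in MR (limma adjusted p = 0.267). It also held a gained region 339 bp from an end (2.07 and 3.78). The demethylase gene Kdm4b held 3 lost regions, the strongest with 10.2 and 5.18. Of 37 other SAM-dependent chromatin methyltransferases 7 held a gained region (18.9%) and 1 a lost one (2.70%), both near the shares of all genes (15.7% and 3.74%), and 0 held a gained one at equal list length. Smyd1, a muscle methyltransferase, held 1 of each.

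Signalling and matrix genes often held gained regions. Of 32 Runx and TGF-beta pathway genes 16 (50%, against 15.7% of all genes) held one. A lost region was held by 1, Runx1 (3.12%, near the 3.74% of all genes). Ltbp1, a latent TGF-beta binding protein, held 6, and receptors Tgfbr2, Acvr1, Bmpr1a and Bmpr2 held one at an end. Smad3 (strongest 9.69 and 6.88) and the inhibitory Smad7 (9.44 and 6.29) held regions that were also in both D0 lists. Of 39 extracellular matrix genes 16 (41.0%, against 15.7%) held a gained region and 2 (5.13%, against 3.74%) a lost one. Those with a gained region included Fbn1, fibrillin, with 8, and Col12a1 (11.4 and 11.3), Col6a3 (8.85 and 13.4) and Sparc (11.6 and 6.48). Of 25 insulin-like growth factor genes 8 (32.0%) held a gained region, among them Igf1r with 4 (strongest 13 and 9.45). At equal list length the shares were 15.6%, 23.1% and 20%, against 5.72% of all genes. Members of these lists were long, with a median of 61.4, 44.8 and 48.8 kb against 17.3 kb for all genes. The part of gene length in these counts was not tested. By gene-end rank, 6 of 25, 4 of 24 and 2 of 15 ranked genes were higher (24.0%, 16.7% and 13.3%, against 35.5% of all ranked genes) and 9, 7 and 6 lower (36%, 29.2% and 40%, against 22.2%).

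Of 14 AP-1 genes 3 held a gained region (21.4%, against 15.7% of all genes), among them Jun and Junb near their ends. Both regions were weak (−log10 q 1.98 and 1.40 at Jun, 1.98 and 1.71 at Junb), and neither remained at equal list length. At equal length 1 of the 14 (7.14%, against 5.72% of all genes) held a gained region. Of 9 ranked genes 1 was higher (11.1%, against 35.5% of all ranked genes) and 6 lower in MR (66.7%, against 22.2%). Of 37 cell cycle genes 5 held a gained region (13.5%, against 15.7% of all genes) and 3 a lost one (8.11%, against 3.74%). Cdkn1a, the inhibitor p21 that marks cell cycle exit, held a gained region at an end (4.55 and 2.51) that was in both WT D5 MR and neither D5 CTL list. Of 10 genes each, adipocyte genes held 0 gained and 0 lost regions and immune genes 2 and 1 (Cd68 and Csf1r gained, Spi1 lost). Gene-end peaks numbered 2 to 4 per library for adipocyte, 2 to 3 for osteoblast and 2 to 3 for immune genes.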

How the data were processed

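The deposited files are 1 broadPeak list per library, called per library. Per the file headers and values, each list gives the authors' peak positions, a score (10 times the −log10 q-value without decimals), a fold enrichment (a ratio), and −log10 p-values and −log10 q-values. Tagmentation used a commercial ATAC-seq kit with 10 PCR cycles and paired-end sequencing, per the labels' protocols. The build is GRCm38, per the submitters' processing notes. The aligner, duplicate handling, read shift and peak caller are not given in the sources used here, and how they affect the lists was not tested.

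Lists of the 4 libraries were merged with numpy 2.4.6 and pandas 2.3.3 at 1 bp of overlap and checked against bedtools 2.31.1. Genes came from 21631 protein-coding entries of the RefSeq table of GRCm38.p6, which carries no strand, so a gene end is either end, within 1 kb. Promoter sequences came from a RefSeq table of the same assembly with 21045 promoters on the chromosomes it covers. Values were compared only as ranks within a list, with limma 3.58.1 in R 4.3.3 and Benjamini-Hochberg adjustment at 0.05, or with exact permutation tests. A region took the value of its strongest peak. Tested on simulated data made for this comparison over 38390 regions, limma called 162 of 200 regions shifted by 2 normal scores (1 unchanged region called) and 0 of 200 shifted by 1. Small shifts can therefore stay under the threshold.

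Regions were named by the nearest protein-coding gene: the 15 strongest gained and lost regions, the 10 largest rises and falls of rank without overlap, members of 17 gene lists that hold a gained or lost region, and Myog, Myod1, Mat2a, Atf4, Asns, Setd2, Mymk, Mymx, Acta1, Ckm and Mki67. The comparison, the members and the lists were chosen with earlier results of these data known. Intervals on shares of regions are Wilson intervals and cover counting error only. Alternatives were list length, q-value, coverage of a region, gene-end distance, rank column, a replicate block and leaving out each library.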

Additional observations from a re-analysis of the deposited data

Results flagged for a closer look

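At D1 the gene-end share of peaks was lower in MR in WT, while in the knockout lines it was higher in KO 1 and nearly unchanged in KO 2. In WT it was lower in MR than in CTL by −2.70 percentage points on average, with both MR libraries below both CTL libraries. In KO 1 the share went from 20.1% in CTL to 21.4% in MR, and in KO 2 from 25.2% to 25.4%. Each KO line has 1 library per medium. The KO lists shortened under restriction, from 61045 to 48460 peaks in KO 1 and from 46664 to 35201 in KO 2. In WT the mean number of peaks was higher in MR. The difference between genotypes was not tested. The WT value was −0.87 points at equal list length, and the KO values are for the lists as deposited.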

How the results depend on the processing

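Gained regions outnumbered lost ones under each setting run, but the sizes moved. Gained and lost regions numbered 3957 and 3073 with 45545 peaks per list, 2087 and 1822 with 20000, 5722 and 780 at a −log10 q of at least 5, and 12220 and 1546 where peaks had to cover 50% of a region. Leaving out 1 library gave 9084 to 18092 gained and 1684 to 6733 lost regions. A −log10 q of at least 2 kept both counts within 1.5 times (7746 and 1264).

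In the limma rank test, fold enrichment in place of −log10 p gave 936 regions higher and 1077 lower in MR (499 and 639 of them shared), and ranked regions with a −log10 q of at least 5 gave 174 and 303. The replicate block gave 0 and 0, with 10151 at an unadjusted p under 0.05. Leaving out 1 library gave 0 in each direction, with 5968 to 11747 at an unadjusted p under 0.05. The replicate numbers are only numbers here, since the labels tie them to no shared culture or day. The cause of these differences was not tested, beyond the fewer samples or regions in each fit.

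With 20000 peaks per list, the D5 difference for lost regions turned from 5.32 to −12.2 percentage points, and that for gained regions was 18.9 against 19.1. Leaving out 1 D5 library gave 18.1 to 20.1 points for gained and 4.67 to 5.96 for lost regions. The number of peaks (log2 difference 0.08 to 0.48) and the gene-end share (−4.06 to −0.87 points) kept their direction under each alternative run, though the groups overlapped in gene-end share in some, and the replicate block changed no other call. Depth is unknown, so a region absent from a list may be open below its threshold.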
